A study of Homo sapiens with 4 samples.

Results

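Ishikawa cells given 17β-estradiol (E2) for 8 h were compared with Ishikawa cells given vehicle, the 0 h culture of the same time course. Ishikawa is an established line from a human endometrial adenocarcinoma that carries the estrogen receptor. After the limits on cells given below, 1465 cells of the 8 h culture and 776 cells of the 0 h culture remained, 2241 of the 9239 kept cells in the series. Cells entered by the tag call of their culture, which uses no expression value.

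The series profiles single-cell transcripts along a 4-point E2 time course (0, 2, 4 and 8 h) in Ishikawa and, separately, in T-47D, a breast carcinoma line. The dose of E2 was 10 nM, the vehicle was DMSO, and both lines had first spent 5 days in medium depleted of hormones, so the 0 h cells and the 8 h cells shared that depletion. Each time point was 1 culture, tagged by MULTI-seq, in which lipid-linked oligonucleotides insert into the membrane of each cell, and all 4 cultures of a line then went into a single droplet library. With 1 culture per time point there is no replicate and no test, and every interval below covers counting error only.

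Levels rest on unique molecular identifiers (UMIs), one for each transcript captured. They were summed over the kept cells of a time point and scaled to a pool total of 1000000 UMIs (CPM). The pools held 14589194 UMIs at 0 h and 29721164 at 8 h after the GFP and tdTomato features had been left out, and the median kept cell held 19121.5 UMIs at 0 h and 20860 at 8 h. A gene was examined when its mean over the time course reached 10 CPM, and it counted as higher or lower when log2((CPM at 8 h + 1)/(CPM at 0 h + 1)), the log2 fold change, passed 1.5-fold. This scale understates the change of low genes.

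The 0 h pool differed from the 8 h pool in how many cells passed the limits. Of the cells called to a time point, 38.2% at 0 h (95% exact Clopper-Pearson interval 36.1% to 40.3%) and 54.4% at 8 h (52.5% to 56.3%) were kept. Before the limits, the median mitochondrial share was 7.29% at 0 h and 4.63% at 8 h, and among kept cells it was 4.12% and 3.96%. With every called cell in place of the kept ones, 46 genes were higher and 100 lower, and the part of cell selection in each single result was not tested beyond the values printed. Only 3 of the 2241 kept barcodes also occurred among the kept T-47D barcodes.

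The label of the line was checked against markers. Markers of luminal breast cells summed to 158 CPM at 0 h, against 3163 CPM in T-47D. Of 18 endometrial epithelial markers, 16 averaged at least 10 CPM, a list that T-47D also expresses (13112 CPM summed at 0 h, against 6404 in Ishikawa) and that shows epithelium rather than the line. It includes the epithelial adhesion protein EPCAM at 521 CPM at 0 h and 498 at 8 h and the factor SOX17 at 55.0 and 56.5. Immune markers summed to 2.26 CPM at 0 h and 3.16 at 8 h and endothelial markers to 1.65 and 0.976, with none of the 12 past the minimum. Stromal markers summed to 32.4 and 23.9 CPM, of which COL1A1 made up 30.4 and 20.7, and DCN and PDGFRB were at 0 UMIs in both pools.

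E2 enters the cell and binds the estrogen receptor ESR1, a nuclear receptor that then binds DNA at estrogen response elements and recruits coactivators or corepressors. In the endometrium, estrogen drives growth of the epithelium and raises the progesterone receptor. Many of its binding sites lie in enhancers far from the promoters they act on, and genes without a nearby site can change later through the products of the first targets.

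The promoters of the 3 genes with the highest log2 fold changes, and of the lower gene with the lowest log2 fold change that had an entry, are shown so that the letters before the start of the most responsive genes can be read. Each is the 250 bases before the RefSeq gene start on GRCh38.p14, the hg38 build that the processing notes name, printed 5′ to 3′ on the strand of the gene. They lie at chr1:12618211-12618460 (minus strand, DHRS3), chr1:209675162-209675411 (plus strand, G0S2), chr19:5804817-5805066 (plus strand, NRTN) and chr4:15938741-15938990 (minus strand, FGFBP1). Capitals would mark the palindromic estrogen response element or its single arm (AGGTCA) on either strand, and none of the 4 holds one.
DHRS3: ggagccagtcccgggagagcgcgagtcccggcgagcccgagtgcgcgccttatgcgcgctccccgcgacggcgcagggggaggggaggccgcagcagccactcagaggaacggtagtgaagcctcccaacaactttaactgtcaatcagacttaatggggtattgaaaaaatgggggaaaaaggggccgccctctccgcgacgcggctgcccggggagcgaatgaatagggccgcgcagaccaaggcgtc
G0S2: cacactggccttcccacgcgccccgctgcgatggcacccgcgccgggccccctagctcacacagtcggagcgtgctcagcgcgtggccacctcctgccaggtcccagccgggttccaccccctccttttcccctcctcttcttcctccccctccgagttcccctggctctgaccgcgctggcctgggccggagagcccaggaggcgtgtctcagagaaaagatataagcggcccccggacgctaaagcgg
NRTN: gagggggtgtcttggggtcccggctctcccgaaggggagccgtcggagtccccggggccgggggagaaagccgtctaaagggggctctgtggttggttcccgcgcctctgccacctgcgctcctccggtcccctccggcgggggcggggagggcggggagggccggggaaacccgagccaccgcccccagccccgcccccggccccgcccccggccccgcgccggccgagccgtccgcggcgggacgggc
FGFBP1: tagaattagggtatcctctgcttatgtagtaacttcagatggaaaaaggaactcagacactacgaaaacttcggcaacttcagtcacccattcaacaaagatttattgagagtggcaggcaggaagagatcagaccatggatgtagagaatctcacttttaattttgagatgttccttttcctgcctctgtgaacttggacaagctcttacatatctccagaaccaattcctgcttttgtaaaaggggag

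The letters are a description of these windows and say nothing about more distant sites. Over all 24882 promoters of the same length, 12 (0.0482%) held the full element and 12.4% held the single arm, which is part of some full elements. Of the higher genes, 39 had an entry, none with the full element and 2 (5.13%) with the single arm, TNFRSF18 and VASN. Of the lower genes, 26 had an entry, none with the full element and 3 (11.5%) with the single arm, DSC2, PRSS23 and ZNF487, against 7.67% of the 5724 examined genes that had an entry.

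After 8 h, 64 genes were higher and 41 lower among the 8021 examined, which is 0.798% and 0.511%, or 1.31% in either direction. Most transcripts were close to their starting level, with 91.6% of genes within 0.32 on the log2 scale and a median log2 fold change of -0.0077. Past 2-fold, 20 genes were higher and 4 lower. The minimum averages the pools at 0, 2, 4 and 8 h, so a gene low at 0 h could pass it through the E2 pools. The balance at 1.5-fold depended on the setting. It was 62 higher and 48 lower with the minimum over 0 h and 8 h, 213 and 207 with no minimum, and 46 and 100 with every called cell. The genes just inside the limit were SLC16A3 at 0.59 (0.585298 before rounding) and JAG1 at -0.59 (-0.585128), and the genes just outside it were LYAR at 0.58 and LAMA3 at -0.58.

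**Figure D1:**
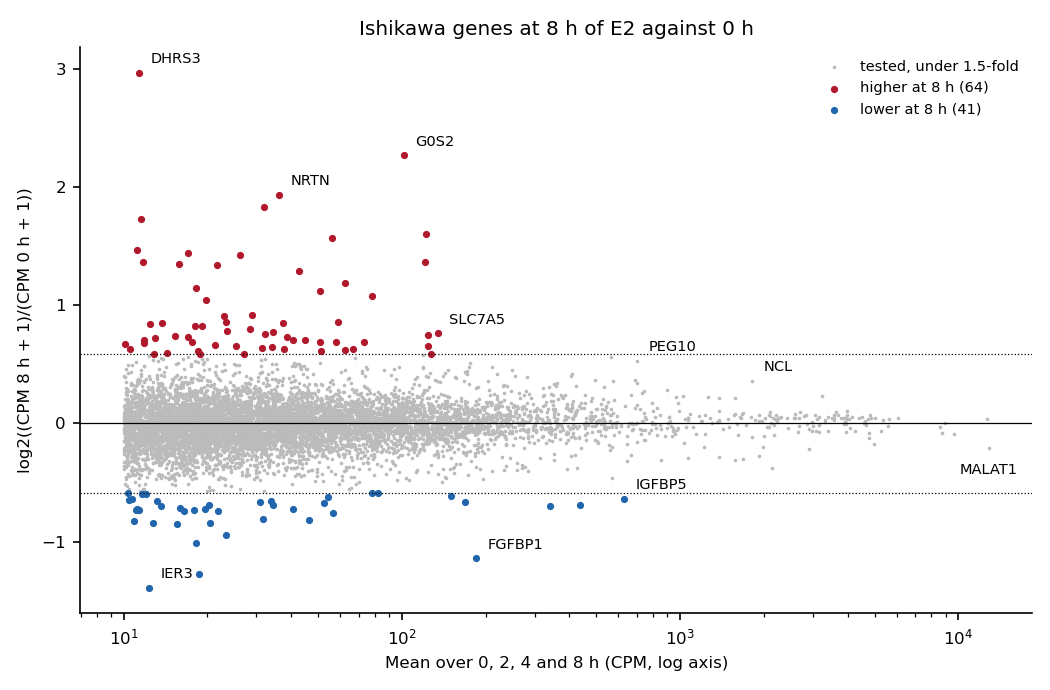
Each point is one of the 8021 examined Ishikawa genes, with its mean over the 4 time points in CPM on a log axis and its log2 fold change at 8 h, and the dotted lines mark 1.5-fold. The 64 higher genes (red) reach 2.97 for DHRS3 and the 41 lower genes (blue) reach -1.39 for IER3, while the abundant MALAT1 lies at -0.21.

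DHRS3 and G0S2 stood first by log2 fold change. DHRS3 (ENSG00000162496), which reduces retinaldehyde to retinol, had 25 UMIs at 0 h and 601 at 8 h, or 1.71 CPM (95% exact Poisson interval 1.11 to 2.53) and 20.2 CPM (18.6 to 21.9), an 11.8-fold difference (95% exact interval of the ratio 7.92 to 18.4). G0S2 (ENSG00000123689), which inhibits the lipase PNPLA2, stood at 19.5 CPM (17.3 to 21.9) and 98.1 CPM (94.6 to 102), 5.02-fold higher (4.45 to 5.69). Neither pair of intervals overlapped. Of 10 examined genes of retinoid metabolism, DHRS3 alone was higher by 1.5-fold, and the highest of the rest was FABP5 at 0.40. Of 6 examined genes of lipolysis and lipid droplets G0S2 alone was higher by 1.5-fold, with PNPLA2 itself at -0.18. Among all examined genes 0.798% were higher, so lists this short say little about the other members. CA2, a carbonic anhydrase, went from 9.46 CPM (7.95 to 11.2) to 27.4 CPM (25.5 to 29.3), a log2 fold change of 1.44.

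Next in order were NRTN and TGFA, which both encode secreted ligands. NRTN (ENSG00000171119), the neurotrophic ligand neurturin of the GDNF family, had 12.95 CPM (11.2 to 14.9) at 0 h and 52.3 CPM (49.8 to 55.0) at 8 h, 4.04-fold higher (3.47 to 4.72). Its receptor chains were scarcely detected, with GFRA2 at 2 and 5 UMIs and RET at 3 and 1. TGFA (ENSG00000163235), a ligand of the EGF receptor, stood at 11.8 CPM (10.1 to 13.7) and 44.6 CPM (42.2 to 47.05), 3.78-fold higher (3.22 to 4.46). The EGF receptor family itself lay slightly lower without passing 1.5-fold, EGFR at 28.1 and 21.7 CPM, ERBB2 at 18.7 and 15.4 and ERBB3 at 20.2 and 15.3, while the ligand AREG was at 14.5 and 18.1. Among secreted and matrix proteins, THBS1 (thrombospondin 1) went from 40.1 to 92.5 CPM (log2 fold change 1.19), FBLN1 (fibulin 1) from 45.9 to 84.1 (0.86) and GAS6, a ligand of the AXL receptor, from 12.3 to 21.1 (0.73).

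Several membrane and signalling proteins were also higher. KCNK15, a potassium channel, had 5.14 CPM (4.04 to 6.44) and 19.4 CPM (17.8 to 21.0), 3.77-fold higher (2.96 to 4.86). RGS10, which shortens G protein signals, stood at 20.6 and 63.1 CPM (1.57), and the 2 other examined RGS genes did not pass 1.5-fold, the lower of them RGS20 at -0.52. The kinase PIM1 stood at 4.25 and 13.6 CPM (1.47), the adaptor DOK7 at 12.7 CPM at 0 h with a log2 fold change of 1.43 and the mTOR inhibitor DEPTOR at 5.96 and 16.9 (1.36). Receptors in the list included the interleukin 1 decoy receptor IL1R2 (29.5 and 65.4 CPM, 1.12) and the adrenergic receptor ADRA2C (10.8 and 23.4 CPM, 1.04), and genes of the cell cortex included the desmosome-associated KAZN (53.9 and 140.2 CPM, 1.36), the actin nucleator COBL (1.15) and the actin bundler ESPN (1.075). RNF223 had 5.35 and 15.2 CPM (1.35).

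Some higher genes encode transcription regulators. EGR1, a zinc finger factor of the early growth response, went from 14.5 CPM (12.6 to 16.6) to 38.4 CPM (36.2 to 40.6), a log2 fold change of 1.34, and its corepressor NAB2 from 18.4 to 29.6 CPM (0.66). HES2 stood at 21.1 and 53.2 CPM (1.29), FHL2 at 23.0 and 42.3 (0.85), MYC at 18.2 and 32.4 (0.80) and CEBPD at 42.1 and 68.6 (0.69). Of 13 examined immediate-early genes, EGR1 and MYC were higher and IER3 lower, against 0.798% and 0.511% of all examined genes. The list's median was 0.07. Cyclin D2 (CCND2) was at 9.12 and 17.3 CPM (0.85), and the other D cyclins did not pass 1.5-fold, with CCND1 at 495 and 636 CPM (0.36) and CCND3 at 15.6 and 17.0 (0.11).

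The remaining higher genes had log2 fold changes from 0.59 to 0.92. They were the phospholipase PLCB1 (0.92), CCDC146 (0.91), the ubiquitin ligase SIAH2 (0.86), QSOX2 (0.84), NPIPB5 (0.83), the GTPase RHOU (0.82), the carnitine transporter SLC22A5 (0.78), SEPT9 (0.77), the amino acid transporter SLC7A5 (0.76), VASN (0.76), the DNA repair factor RBBP8 (0.75), AK4 (0.74), LY6E (0.73), HEXDC (0.72), NARF, XXYLT1 and PXK (0.70 each), AGPAT2, AC006329.1 and CKB (0.69 each), ARHGAP26 (0.68), SLC25A22 (0.67), IER5L (0.66), SYNJ2 (0.65), SIN3B and ADPRHL1 (0.64 each), SCGB2A1, EPB41L2 and HRASLS (0.63 each), NCOA4 (0.62), ABHD11 and GEMIN5 (0.61 each), and TNFRSF18, TMEM120B, SNHG15, TMEM64 and SLC16A3 (0.59 each). For NPIPB5, one of a family of near-identical copies, the counting could split or lose shared reads, and its value is uncertain.

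Known estrogen targets were examined as a list drawn from general knowledge. Of 44 listed genes, 23 passed the minimum, 7 were higher and 2 lower, against 0.798% and 0.511% of all examined genes, and the median was 0.38 against -0.0077 for all examined genes. The higher members included TGFA, KCNK15, SIAH2, FHL2, MYC and SLC7A5, and the lower ones were PRSS23, a secreted protease, at -0.66 and IGFBP5, which binds insulin-like growth factors, at -0.64. The list was chosen with earlier results of these data known and is no independent evidence of a direction. Sitting under 1.5-fold were NRIP1 (32.8 and 46.9 CPM, 0.50), TPD52L1 (143 and 201, 0.48) and RARA (8.91 and 12.1, 0.40).

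Classical targets below the minimum were few in UMIs. The progesterone receptor gene PGR had 14 UMIs at 0 h and 146 at 8 h, a ratio per total of 5.12 (2.95 to 9.60). GREB1, a receptor cofactor and target, had 18 and 121 UMIs, a ratio of 3.30 (2.00 to 5.76). TFF1, the trefoil peptide that marks estrogen action in breast cells, had 2 UMIs at 0 h and 0 at 8 h, where 3 counts would correspond to 0.101 CPM, so its response was not detectable at this depth. The receptor ESR1 itself stood at 46.7 CPM (43.2 to 50.3) at 0 h and 37.0 CPM (34.8 to 39.2) at 8 h, 1.26-fold lower (1.15 to 1.39), under the 1.5-fold limit. PEG10, an imprinted gene derived from a retrotransposon, stood at 599.8 CPM (587 to 613) and 866 CPM (856 to 877), 1.44-fold higher (1.41 to 1.48), also under the limit.

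**Figure D2:**
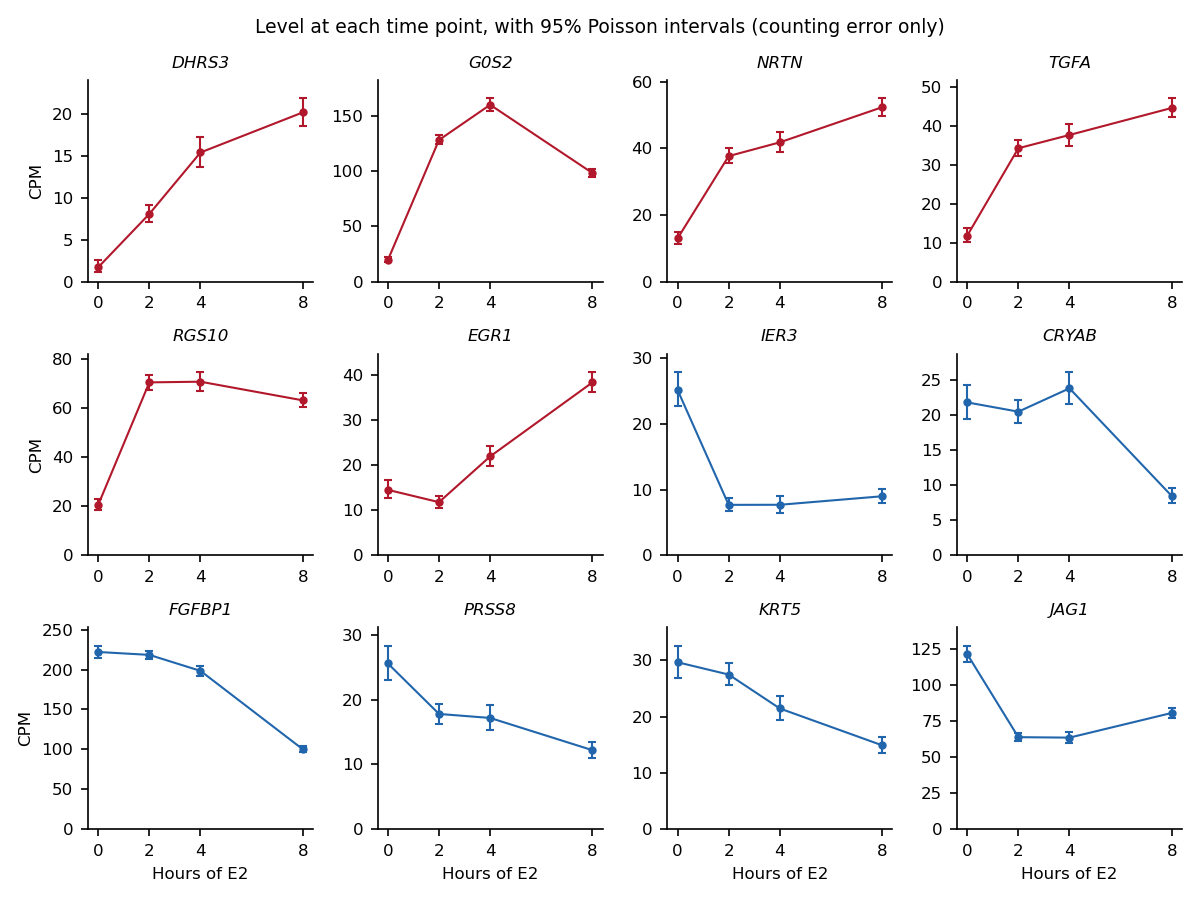
CPM of 6 higher genes (red) and 6 lower genes (blue) at 0, 2, 4 and 8 h, with bars for 95% exact Poisson intervals, which cover counting error only, and each y axis from 0. DHRS3 climbs from 1.71 to 20.2 CPM, G0S2 and RGS10 are highest at 4 h, CRYAB is still at 23.9 CPM and FGFBP1 at 198 CPM at 4 h, and IER3 is already at 7.68 CPM at 2 h.

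The levels at 2 and 4 h show different courses to the 8 h values, which share the 0 h pool. Of the 64 higher genes, 39 had their highest level at 8 h, 14 at 4 h and 11 at 2 h, and since the genes were chosen at 8 h these counts lean to that time. DHRS3 passed through 8.09 and 15.4 CPM at 2 and 4 h and NRTN through 37.7 and 41.8. G0S2 was already at 128 CPM at 2 h and 159.8 at 4 h, above its 98.1 at 8 h, and RGS10 was at 70.4 and 70.7, above its 63.1 at 8 h. EGR1 stood apart, at 11.8 CPM at 2 h, below its 0 h level, before 21.9 at 4 h and 38.4 at 8 h. CA2, at 13.1 and 17.9 CPM, was also nearer to its 0 h than to its 8 h level at 2 and 4 h.

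Of the 41 lower genes, 28 were lowest at 8 h, 7 at 4 h and 6 at 2 h. FGFBP1 was at 218 CPM at 2 h and 198 at 4 h (192 to 205), below its 0 h interval of 214 to 230, before 100.1 at 8 h. CRYAB held 20.5 and 23.9 CPM before 8.48 at 8 h, and CAVIN3 held 18.7 and 18.4 before 10.6. IER3 (7.68 CPM at 2 h), JAG1 (63.7) and ARID5B (24.2) were instead at or near their lowest at 2 h.

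The lower genes had smaller changes than the higher ones, with a median log2 fold change of -0.71 against 0.77. FGFBP1 (ENSG00000137440), which releases fibroblast growth factors from the matrix, stood at 222 CPM (214 to 230) and 100.1 CPM (96.5 to 104), 2.22-fold lower at 8 h (2.11 to 2.33). PRSS8, the membrane protease prostasin, stood at 25.6 CPM (23.0 to 28.3) and 12.2 (10.96 to 13.5), 2.10-fold lower (1.81 to 2.43). Its relative PRSS23 had 204 and 129 CPM. Of 9 examined surface proteases and inhibitors these 2 were lower and none higher, against 0.511% and 0.798% of all examined genes.

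Keratins and squamous genes, a list that also holds the simple keratin KRT19, lay lower together. Of 14 examined keratins and squamous genes, 4 were lower by 1.5-fold, against 0.511% of all examined genes, and all 14 were below 0, against 52.0% of all. With every called cell 5 of the 14 were lower, where 100 of all 8337 examined genes were. This list, which includes FGFBP1, was chosen with earlier results of these data known and is no independent evidence of a direction. The sign did not hold in all alternatives, with 1 of the 14 above 0 under TMM scaling, 1 with every called cell and 3 in cells without TOP2A and MKI67 UMIs. KRT5, a basal keratin, stood at 29.7 CPM (26.9 to 32.6) and 14.9 CPM (13.5 to 16.4), 1.99-fold lower (1.74 to 2.28), KRT17 at 509.9 and 315 CPM (-0.69) and the 14-3-3 protein SFN at 67.1 and 41.6 (-0.68). The laminin chain LAMA3 (-0.58) stayed short of the limit, as did the simple keratins KRT8 (1822 and 1480 CPM, -0.30) and KRT18 (2102 and 1731, -0.28), while KRT19 was at 435 and 424 CPM (-0.04). The list's median was -0.35, and S100 genes, 8 examined and none past 1.5-fold, had a median of -0.31 and values from -0.40 for S100A2 to -0.17 for S100A14.

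Adhesion and matrix genes included ITGB4, the integrin of hemidesmosomes, at 59.7 and 33.4 CPM (-0.82), ITGB6 at 43.5 and 27.3 (-0.65), the desmosomal cadherin DSC2 at 40.03 and 24.9 (-0.66) and the collagen crosslinker LOX at 18.6 and 9.93 (-0.85). Of 20 examined matrix and adhesion genes, ITGB4 and ITGB6 were lower and THBS1 higher, against 0.511% and 0.798% of all examined genes, with a median of -0.09. With every called cell 5 of the 20 were lower, where 100 of all 8337 examined genes were. The list's median was then -0.39, against -0.035 for all examined genes. Binding proteins of insulin-like growth factors were IGFBP3 at 414 and 255 CPM (-0.69) and IGFBP5 at 788 and 505.5, while IGFBP2 was at 263 and 252. The Notch ligand JAG1 stood at 121 and 80.4 CPM (-0.59). Of 9 examined Notch genes, JAG1 alone was lower by 1.5-fold, against 0.511% of all examined genes, and the list's median was -0.22. Under TMM or median-of-ratios scaling JAG1 no longer passed the limit. All 9 lay below 0 here, against 52.0% of all examined genes, but 3 lay above 0 under TMM and 2 under median-of-ratios scaling. With every called cell 2 of the 9 were lower, where 100 of all 8337 examined genes were.

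IER3 and CRYAB stood last by log2 fold change. IER3 (ENSG00000137331), an early stress response gene, had 25.2 CPM (22.6 to 27.9) and 8.98 CPM (7.94 to 10.1), 2.80-fold lower (2.39 to 3.29). The small heat shock protein CRYAB had 21.9 CPM (19.5 to 24.4) and 8.48 CPM (7.46 to 9.59), 2.58-fold lower (2.18 to 3.05), and the inducible chaperone HSPA6 31.2 and 16.9 CPM (-0.84). These 2 were the only ones of 20 examined chaperones past the limit, where 0.511% of all examined genes were lower and 0.798% higher. Of the 20, 15 were above 0, against 48.0% of all, with FKBP4 at 0.45. CDKN1C, the cell cycle inhibitor p57, stood at 21.9 and 11.6 CPM (-0.86) and CCNG2, a cyclin of resting cells, at 16.04 and 9.25 (-0.73). The orphan nuclear receptor NR2F1 was at 16.7 and 9.76 CPM (-0.72).

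Among the other lower genes, NTNG1 was at -0.82, KIAA1217 at -0.81, the adhesion receptor ADGRF1 at -0.76, CAVIN3 and the sulfotransferase CHST6 at -0.74, TMEM139 and TMPO-AS1 at -0.73, AGR2 and FAM84B at -0.72, AC144450.1 at -0.70, PARD3B and ARID5B at -0.69, UBL7-AS1 and the claudin CLDN9 at -0.65, TMUB2 at -0.64, the tubulin TUBA4A and SAT1, an enzyme of polyamine breakdown, at -0.62, IQCG at -0.60, and ZNF487, SFXN3 and ALDH3A1 at -0.59. TMPO-AS1 and UBL7-AS1 overlap other genes on the opposite strand, and their values are uncertain where the counting did not separate strands.

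Some of these lower genes depended on which cells were summed. HSPA6 had 31.2 CPM at 0 h over all kept cells but 1.67 CPM in the 446 kept 0 h cells in which GFP was under 1% of UMIs, and 0.664 in the 901 such cells at 8 h. In the same cells CRYAB was at 10.7 and 8.63 CPM, a log2 fold change of -0.28. IER3 and ALDH3A1 turned direction in cells with no UMI of the cycling markers TOP2A and MKI67, 263 cells at 0 h and 487 at 8 h: IER3 stood there at 7.40 CPM (5.03 to 10.5) and 7.84 (6.07 to 9.95), and ALDH3A1 at 66.4 (58.8 to 74.6) and 68.7 (63.2 to 74.4). Such cells are also chosen in part for few UMIs. In these cells, 24 of the 41 lower genes still counted as lower and 48 of the 64 higher genes as higher. FGFBP1 (-0.80), KRT17 (-0.75) and ITGB4 (-0.90) were among those still lower, and DHRS3 (2.80) and NRTN (1.92) among those still higher. IGFBP5 (-0.35), ITGB6 (-0.31), LOX (-0.48) and DSC2 (-0.50) kept their direction there but fell short of 1.5-fold.

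**Figure D3:**
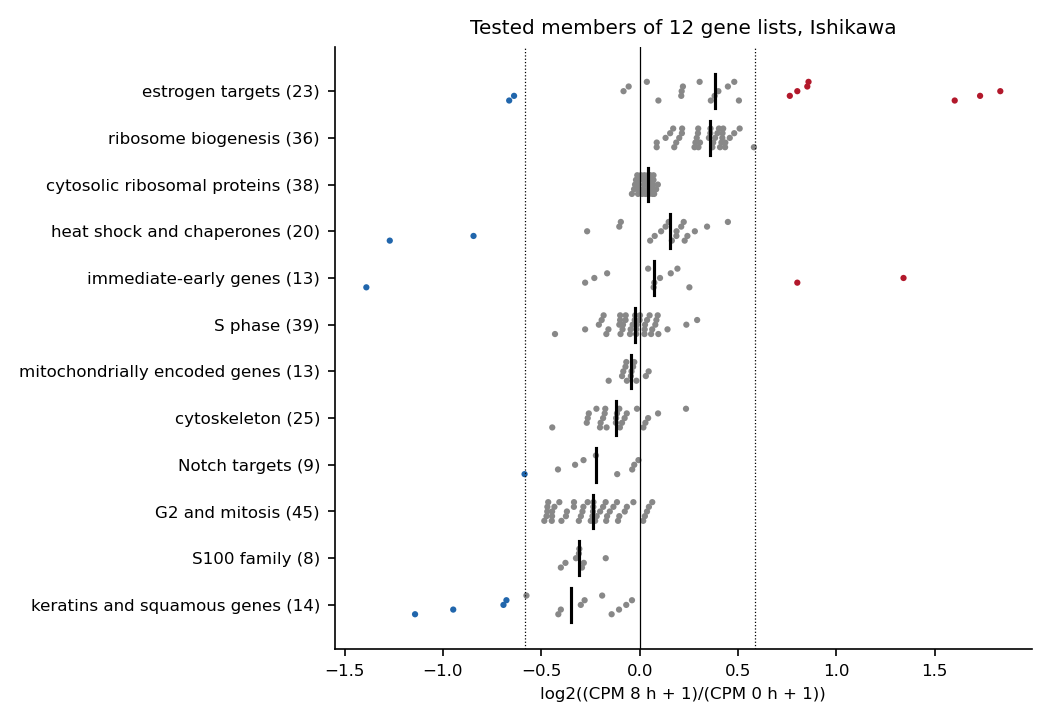
Each point is an examined member of one of 12 gene lists, placed by its log2 fold change at 8 h, with the number of members in brackets, a black bar at the list's median and dotted lines at 1.5-fold. All 36 ribosome biogenesis genes lie right of 0 and none reaches 1.5-fold. The keratins and squamous genes lie left of 0, down to -1.14 for FGFBP1.

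Shifts below 1.5-fold ran through whole groups of genes, whose lists were also chosen with earlier results of these data known. All 36 examined genes of ribosome biogenesis, which make and process ribosomal RNA in the nucleolus, were above 0, against 48.0% of all examined genes, and they stayed above 0 under both other scalings tried, TMM and median-of-ratios. None passed 1.5-fold here, 1 did under either of those, the median was 0.36 and the values ran from 0.09 for POLR1A to 0.58 for LYAR. NCL, the nucleolar protein nucleolin, stood at 1631 CPM (1611 to 1652) and 2094 CPM (2078 to 2111), DKC1, a subunit that guides pseudouridylation, at 143 and 204, and the RNA helicase DDX21 at 355 and 476. Genes of the finished ribosome moved little, with a median of 0.04 over 38 cytosolic ribosomal proteins and a range from -0.04 to 0.09. In cells under 1% GFP, 34 of the 36 biogenesis genes were above 0.

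Genes of G2 and mitosis leaned the other way. Of 45 examined, 5 were above 0 (6 under TMM or median-of-ratios scaling), against 48.0% of all examined genes. None passed 1.5-fold, and the median was -0.24. Examples were CENPF at 234 and 168 CPM (-0.47), CCNB2 at 69.0 and 50.4 (-0.45), TOP2A at 166 and 120 and CCNB1 at 139 and 123 (-0.17). S phase genes had a median of -0.02 over 39. The share of cells with a UMI of TOP2A or MKI67 was nearly the same in both pools, 62.9% (59.1% to 66.5%) at 0 h and 61.1% (58.5% to 63.8%) at 8 h after every cell had been thinned to 11431 UMIs, and 66.1% and 66.8% before thinning. Over cells without such a UMI, which leaves 21 genes of the list past the minimum, the median was 0.02. In cells under 1% GFP, 2 of the 45 were above 0 and 5 were lower by 1.5-fold, where 68 of all 7900 examined genes were lower.

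Of the 48 lists with an examined member, most had medians near that of all genes. The glycolysis list had a median of 0.10 with 1 of 17 higher, SLC16A3, against 0.798% of all examined genes. Heat shock and chaperone genes had 0.16, mitochondrially encoded genes -0.04, cytoskeleton genes -0.12 with TUBA1A lowest at -0.44, and the 5 examined metallothionein and zinc genes -0.38. In the mitochondrial list the summed level was 43232 CPM at 0 h and 41291 at 8 h, and the list's median was -0.43 when every called cell entered. Unfolded protein response, p53 target, interferon-stimulated and cholesterol synthesis genes had medians from -0.04 to -0.01 and no member past the limit.

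The largest differences in CPM, as opposed to fold, were in abundant genes. The increases were HSP90AB1 (3021 to 3541 CPM, 1.17-fold higher), NCL, RPL41 (12365 to 12692), RPS26 (3834 to 4135) and PEG10, where RPL41 and RPS26 have many near-identical pseudogene copies and are uncertain. The decreases were the nuclear long noncoding RNA MALAT1 (14083 to 12191 CPM, 1.16-fold lower), the mitochondrial genes MT-CO1 (9841 to 9249) and MT-CO2 (8862 to 8365), the actin-binding TMSB10 (5115 to 4531) and S100A10 (2320 to 1786, 1.30-fold lower). Counting intervals of these ratios exclude 1, but none of the genes passed 1.5-fold.

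Single cells give the share of cells with a UMI and the number of UMIs in each positive cell. To compare shares at one depth, each cell was thinned to 11431 UMIs, which left 679 cells at 0 h and 1338 at 8 h. A UMI of NRTN was then found in 12.96% of 0 h cells (10.5% to 15.7%) and 38.9% of 8 h cells (36.2% to 41.5%), and of TGFA in 9.57% (7.47% to 12.04%) and 34.5% (31.98% to 37.1%). Without thinning the shares were 18.2% and 51.8% for NRTN and 16.2% and 49.6% for TGFA. DHRS3 was found in 1.62% (0.811% to 2.88%) and 16.7% (14.8% to 18.9%) of thinned cells.

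The genes were chosen for their summed UMIs in the same cells. That choice nearly fixes the direction of these shares and favours the same direction in the UMIs per positive cell. The counts are therefore a description. At few UMIs per cell a higher level alone can raise both values, so they cannot separate more positive cells from more UMIs in each. The share was larger at 8 h for all 64, and for 61 the intervals did not overlap, the exceptions being HRASLS, SCGB2A1 and TNFRSF18. Each positive cell also held more UMIs for 61 of the 64. G0S2 differed from NRTN in this respect: its share went from 14.1% to 27.9% while its UMIs per positive cell went from 1.58 to 4.21, with up to 47 UMIs in one 8 h cell, and the 10% of 8 h cells with most UMIs of the gene held 77.9% of them, against 45.1% for NRTN. EGR1 was similarly uneven, with up to 34 UMIs in a cell and 72.1% of its UMIs in the 10% of cells with most. Every cell type in the library came from this line, so the share that free RNA alone gives was not measured. Cells of all time points were run in the same droplet library, and the 1.62% of DHRS3 at 0 h includes any free RNA of that gene.

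**Figure D4:**
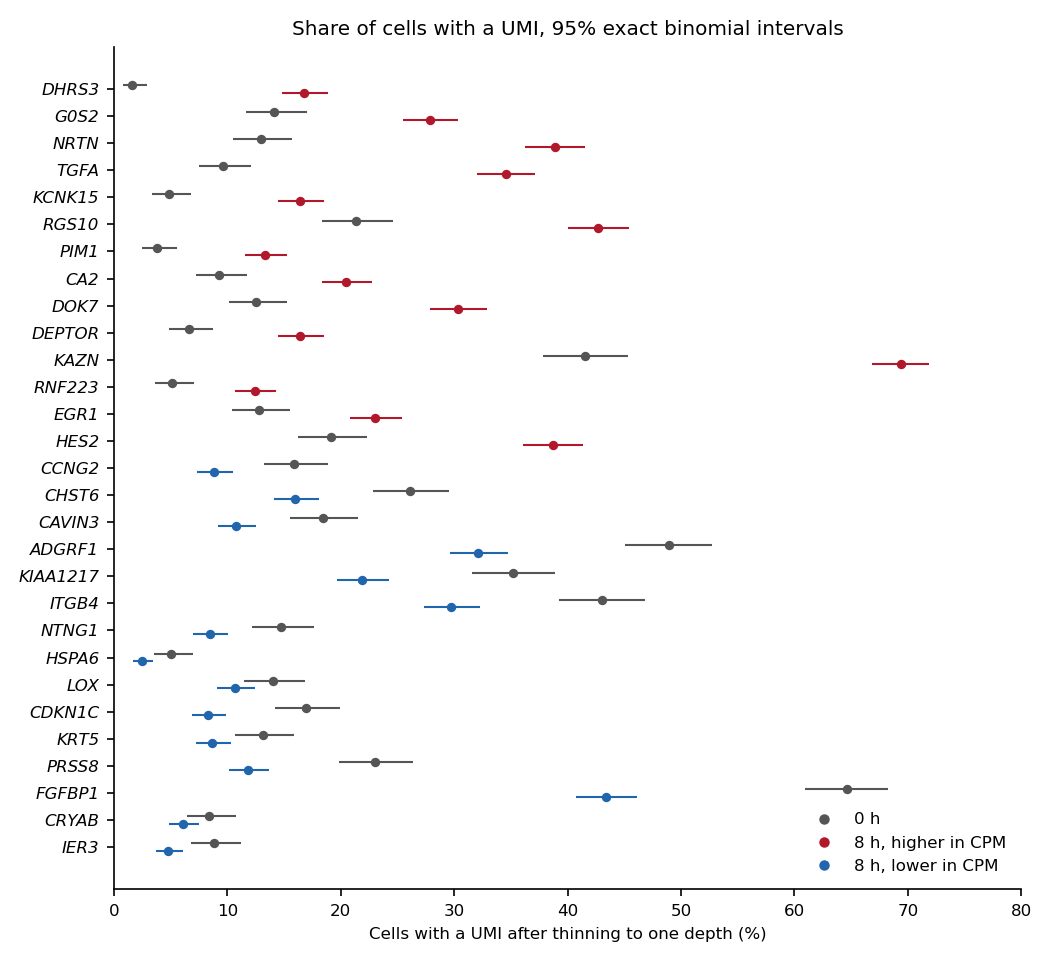
Share of thinned cells with a UMI at 0 h (grey, 679 cells) and 8 h (red or blue, 1338 cells) for 14 of the 15 highest and for the 15 lowest genes by log2 fold change, with 95% exact binomial intervals. Shares are larger at 8 h for all 14 higher genes shown, with KAZN going from 41.5% to 69.4%, and the intervals of CRYAB and LOX overlap.

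The lower genes were chosen in the same way, so their shares and UMIs per positive cell are also a description. Each positive cell held fewer UMIs at 8 h for 32 of the 41. The exceptions were CCNG2, CDKN1C, HSPA6, IQCG, NTNG1, SFXN3, TMPO-AS1, TMUB2 and ZNF487. For all 41 the thinned share was smaller at 8 h, and for 38 the intervals did not overlap, the exceptions being ALDH3A1, CRYAB and LOX. FGFBP1 was found in 64.7% of cells at 0 h (60.9% to 68.3%) and 43.4% at 8 h (40.7% to 46.1%), ADGRF1 in 48.9% and 32.1%, and ITGB4 in 43.0% and 29.7%. CRYAB, HSPA6 and IER3 came from few cells: at 0 h HSPA6 was found in 5.01% of thinned cells with up to 62 UMIs in one of them, CRYAB in 8.39% with up to 37, and IER3 in 8.84% with up to 22. The counting interval of a pool does not cover such unevenness between cells.

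The 5 genes with the highest log2 fold changes, DHRS3, G0S2, NRTN, TGFA and KCNK15, were counted together in each thinned cell. At 0 h, 64.2% of cells (60.5% to 67.8%) had a UMI of none of them, and at 8 h 23.5% (21.3% to 25.9%). Cells with a UMI of 3 or more were 4 with exactly 3 and 1 with 4 among 679 at 0 h, and 147 with 3, 36 with 4 and 1 with all 5 among 1338 at 8 h. The genes were chosen for these levels, so the shift is a description. A cell without a UMI at this depth can still express the gene.

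T-47D cells under the same protocol, with their own 0 h pool, had 174 higher genes (2.34%) and 54 lower genes (0.726%) of 7440 examined, 3.06% in either direction. Of the 64 Ishikawa higher genes, 31 passed the minimum in T-47D and 12 were higher there, which is 38.7% of those 31 and 18.8% of the whole list. Among the 6453 genes past the minimum in both lines, 1.88% were higher in T-47D. The 12 were also 9.92% of the 121 T-47D higher genes among these, where 0.480% of the 6453 were higher in Ishikawa. The 12 were DEPTOR, FHL2, GAS6, PXK, RBBP8, RNF223, SEPT9, SIAH2, SLC22A5, SLC7A5, SNHG15 and THBS1. Of the 41 Ishikawa lower genes, 21 passed the minimum and 2 were lower in T-47D, NR2F1 and PRSS8, which is 9.52% of those 21 and 4.88% of the whole list, where 0.449% of the 6453 genes were lower in T-47D. These 2 were also 6.90% of the 29 T-47D lower genes, where 0.325% of the 6453 were lower in Ishikawa.

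**Figure D5:**
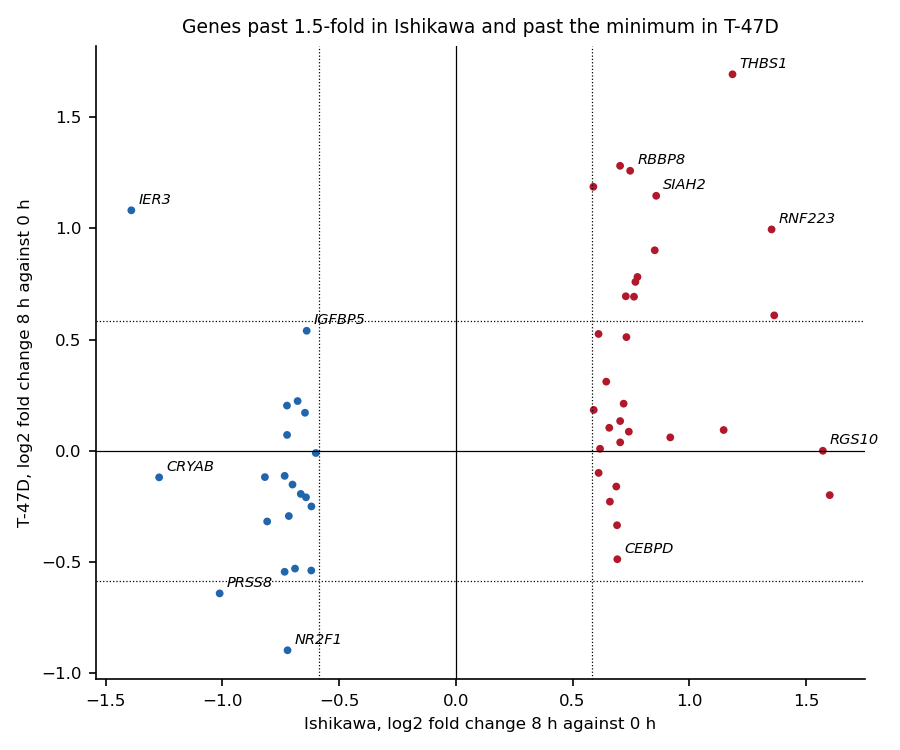
Log2 fold change at 8 h in T-47D (vertical) against Ishikawa (horizontal) for the 31 higher (red) and 21 lower (blue) Ishikawa genes past the minimum in T-47D, with dotted lines at 1.5-fold. THBS1 is high in both lines, RGS10 is near 0 in T-47D, and IER3 lies at -1.39 in Ishikawa and 1.08 in T-47D.

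Several leading Ishikawa genes were little expressed in T-47D. G0S2 had 0.181 CPM at 0 h and no UMI at 8 h there, NRTN 0.241 and 0.387 CPM, and DHRS3 1.99 and 2.09 CPM. RGS10 (28.1 and 28.1 CPM) was well detected in T-47D without passing 1.5-fold. The list of keratins and squamous genes had a median of 0.21 over 10 examined genes in T-47D and -0.35 in Ishikawa. Ribosome biogenesis had medians of 0.35 and 0.36. For the estrogen target list the T-47D median was 1.09 with 20 of 29 higher, against 2.34% of all genes examined there. In Ishikawa that list had a median of 0.38 with 7 of 23 higher, against 0.798% of all examined genes. These differences between the lines were not tested.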

How the data were processed

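Per the labels and the study's methods, the authors ran 10x 3′ single-cell RNA sequencing, aligned reads to hg38 with Cell Ranger 3.1.0 and assigned cells to time points from MULTI-seq tags. The deposited Ishikawa matrix holds raw UMI counts per gene and barcode, with 14985 barcodes, of which 9077 were called to a time point, 1906 were doublet calls and 4002 had no call. The tags remove pairs of cells from different time points, not pairs from the same one, and no doublet caller was run.

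Kept cells had a UMI total between 8500 and 35000, between 2700 and 6000 genes, and a mitochondrial share below 7%, the limits of the study, with the GFP and tdTomato reporters counted. For T-47D they were 7500 to 40000, 1500 to 6000 and 20%. Counts were summed per time point and divided by the total without the reporters. With 1 culture per time point no test was run. Intervals are exact Poisson for CPM, exact Clopper-Pearson for shares and exact conditional binomial for ratios, at 95%, and droplets of 1 library share free RNA. Log2 fold changes carry a pseudocount of 1 CPM, and thinning drew 11431 UMIs from each cell. Named genes are the 15 highest and 15 lowest by log2 fold change, the 5 highest and 5 lowest by change in CPM, 7 genes set by name, the extremes of each list and all genes past 1.5-fold. A few genes that meet these rules are not reported here. Other list members were chosen for naming after their values were seen. The members and the 50 lists were chosen with earlier results of these data known.

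Alternatives changed the scaling (edgeR 4.0.16 TMM, DESeq2 1.42.0 size factors), the totals, the pseudocount, the minimum, the fold, the cells and the summing. The code was tested on simulated data with 200 genes changed. Python 3.11.15, numpy 2.4.6, scipy 1.17.1, pandas 2.3.3 and R 4.3.3 were used. Promoters and coordinates came from RefSeq, GRCh38.p14. A supplied genome of another build was not used.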

Additional observations from a re-analysis of the deposited data

Results flagged for a closer look

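IER3 lay in opposite directions in the cell lines, at a log2 fold change of -1.39 in Ishikawa (25.2 CPM at 0 h and 8.98 at 8 h) and 1.08 in T-47D (123 and 262 CPM). The difference was not tested, since each time point was 1 culture.

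The reporter features, which enter no comparison above, carried signal in the kept Ishikawa cells. GFP stood at 46740 CPM at 0 h and 41036 CPM at 8 h of totals that include the reporters. For tdTomato there were 480 UMIs at 0 h and 1378 at 8 h, not scaled, from such totals of 15305038 and 30994433 UMIs.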

How the results depend on the processing

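No paired analysis was possible because each time point was 1 culture, and for the same reason no replicate could be left out. Against 64 higher and 41 lower genes, pseudocount 5 gave 25 lower, every called cell 100 lower, cells under 1% GFP 68 lower, cells without TOP2A and MKI67 UMIs 113 higher and 80 lower, no minimum 213 and 207, a minimum of 50 CPM 18 and 11, a limit of 0.32 on the log2 scale 303 and 371, and a limit of 2-fold 20 and 4. Higher genes were 61.0% of all genes past the limit, against 69.4% under TMM scaling (77 and 34), 67.6% under median-of-ratios scaling (71 and 34) and 31.5% with every called cell (46 and 100). In cells without TOP2A and MKI67 UMIs, the log2 fold changes of ALDH3A1 (0.048) and IER3 (0.073) reversed, and the cause was not tested. Under all 13 alternatives that give each gene a value, 33 of the 64 higher and 15 of the 41 lower genes passed 1.5-fold. That count leaves the minimum aside. DHRS3 is one of the 33, but in cells under 1% GFP it fell below the minimum and no longer counted as higher. Depth limited PGR, GREB1 and TFF1, which lay under 10 CPM.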
